A study of Mus musculus with 15 samples.

Results

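Transcripts of the vascular endothelial growth factor (VEGF) and angiopoietin systems were followed in the mouse uterus after a single injection of estradiol (E2) or estriol (E3). The members are 10 genes: the VEGF ligands *Vegfa*, *Vegfb*, *Vegfc*, *Figf* (now named *Vegfd*) and *Pgf*, their receptors *Flt1* and *Kdr*, the angiopoietins *Angpt1* and *Angpt2*, and their receptor *Tek*. Every probe annotated with 1 of these symbols was taken, which gave 20 probes of the 41174 gene probes on the array. Of these 20, 19 passed the filter on dim signal and were tested, together with 34776 probes in all.

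All mice were ovariectomized females, wild type for *Esr1*, at least 10 weeks old, and had rested for 10 to 14 days before an intraperitoneal injection of 100 µl. Saline was given to the controls, collected at 24 hr, and 250 ng of E2 or of E3 in saline to the treated mice, collected at 2 hr or 24 hr. That gives 5 groups of 3 arrays each, 15 arrays in all, and since saline was not sampled at 2 hr, both times were set against its 24 hr arrays. The E2 2 hr mice were of strain C57bl6/Jx129, and the other groups were C57bl6/J. The labels describe each uterus as homogenized alone, whereas the methods describe RNA from pooled tissue, so the spread between arrays may be that of animals or partly technical.

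VEGF ligands act mainly on endothelial cells, where *Kdr* carries the main signal for vessel growth and leakiness and *Flt1*, also made as a soluble form, binds VEGF-A tightly and limits it. *Pgf* (placental growth factor) and VEGF-B bind *Flt1* only, and VEGF-C and VEGF-D act chiefly on the lymphatic receptor *Flt4*. *Angpt1*, made by cells around the vessel, activates the receptor *Tek* and keeps vessels tight, and *Angpt2*, made by endothelium, mostly opposes it. In the rodent uterus estrogens are known to raise capillary permeability within hours, which swells the stroma before the epithelium divides.

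A level here is the log2 of a probe's background-subtracted intensity minus the log2 of the 75th percentile of its array, so that 0 is that percentile. A probe was called higher or lower where limma's p was under 0.001 and the change at least 2-fold (1 on the log2 scale). The adjusted p (Benjamini-Hochberg, over all probes tested) is given beside it, as is the standard error (SE) of a log2 fold change. Levels of different probes cannot be compared with each other, since probes bind with different strength, so a probe is set against itself across arrays, and a difference between probes is used only for how it changed across groups. In whole uterus, fewer cells of a type and less RNA per cell cannot be told apart.

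The arrays resembled each other in brightness, with a 75th percentile of 2989 to 4412 intensity units and 77.8% to 81.8% of probes well above background. All 6 uterine markers and all 16 endothelial markers on the array were well above background on all 15 arrays. Several libraries stood apart in transcripts of other organs. The summed level of 6 pancreas markers ran from -1.94 to -0.82 on 11 arrays but reached 8.91 and 3.45 on E3 2 hr replicates 2 and 3, and 7.88 and 2.24 on E2 24 hr replicates 2 and 3. The summed level of 7 liver markers was 2.24 to 4.14 on the saline arrays, 0.21 to 1.54 at E3 2 hr, -2.09 to -1.55 at E2 24 hr, -1.90 to -1.10 at E3 24 hr and -4.92 to -4.55 at E2 2 hr. Fat markers (6) summed to 3.60 to 5.88 with saline, 2.79 to 3.53 at E2 24 hr and 2.81 to 5.65 on the other treated arrays. Skeletal muscle markers (5 measured) summed to 1.78 to 1.91 with saline, 1.17 to 1.49 at E2 2 hr, 1.89 to 2.07 at E3 2 hr, 3.02 to 3.46 at E2 24 hr and 2.42 to 3.03 at E3 24 hr, above saline on all 24 hr arrays of treated mice. Both leukocyte lists were high on saline replicate 2, E3 2 hr replicate 3 and E3 24 hr replicate 3, with lymphocyte sums of 3.227, 4.005 and 2.906 and neutrophil sums of 3.08, 1.99 and 2.35. The part of these transcripts in the results was not tested beyond leaving out the 4 arrays high in pancreas transcripts or these 3. The E2 2 hr arrays also differed from the rest in strain, slide, scanner and scan day, which cannot be told apart from the treatment.

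The *Angpt1* probes lie in coding sequence and are shown because the results below turn on how probes of the same gene differ. The files place them on mouse build mm7, on the minus strand. They cover the coiled-coil part and the fibrinogen-like end of the protein.
Angpt1 A_52_P574140, chr15:42504318-42504377: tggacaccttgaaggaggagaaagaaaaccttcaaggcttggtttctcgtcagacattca
Angpt1 A_52_P160328, chr15:42434991-42435050: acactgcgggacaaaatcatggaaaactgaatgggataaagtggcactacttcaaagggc

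The stretches of 250 bases upstream of the outermost RefSeq start of *Vegfa* and *Pgf* (build GRCm38.p6, minus strand, 5′ to 3′) are shown because these were the members whose transcripts rose. Capitals mark matches on either strand to GGTCA, the core of the estrogen response element, or to the GC box GGGCGG, to which Sp1 binds.
Vegfa, chr17:46032378-46032627: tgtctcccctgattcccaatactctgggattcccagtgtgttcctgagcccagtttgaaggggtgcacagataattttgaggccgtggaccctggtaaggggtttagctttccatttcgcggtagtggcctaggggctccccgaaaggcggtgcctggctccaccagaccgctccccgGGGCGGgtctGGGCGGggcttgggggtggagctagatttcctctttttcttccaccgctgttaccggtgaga
Pgf, chr12:85177314-85177563: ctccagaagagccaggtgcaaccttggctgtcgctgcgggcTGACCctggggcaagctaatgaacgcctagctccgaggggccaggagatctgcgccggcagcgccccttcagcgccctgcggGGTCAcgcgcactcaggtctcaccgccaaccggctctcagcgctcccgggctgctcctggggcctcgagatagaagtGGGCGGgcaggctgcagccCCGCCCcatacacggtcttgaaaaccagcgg

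RefSeq windows from 250 bases before to 50 after a start were at hand for 8 of the 10 genes, 10 windows in all, and not for *Angpt1* or *Angpt2*. The full estrogen response element GGTCANNNTGACC was in 0 of the 10 windows and in 0.07% of all 32851 windows. The core GGTCA was in 6 of the 10, against 40.5% of all windows, and the GC box was in 7, against 35.7%. ACGTG, the core that hypoxia-inducible factors bind, was in 1 of the 10, an inner *Vegfa* window, against 19.6% of all windows. TGACTCA, to which AP-1 binds, was in 0 of the 10, against 5.2%. The GGTCA matches include those within a full element. These are matches of letters and describe no binding.

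*Pgf* and *Vegfa* rose steeply at 2 hr under both estrogens, and at 24 hr no probe of either gene passed the call against saline. *Pgf* was measured by a single probe, A_51_P318381, whose ends lie 2003 bases apart on chr12:83167223-83169225 (mm7, minus strand), so that it spans an exon junction. Its levels were -3.11, -3.08 and -3.39 on the saline arrays, 1.60, 2.97 and 2.71 at E2 2 hr, and 2.63, 2.62 and 2.02 at E3 2 hr. The 2 hr arrays of both estrogens lay far above saline and overlapped each other. The log2 fold change was 5.62 (SE 0.34, 49.2-fold, adjusted p = 6.88e-08) with E2 and 5.61 (SE 0.34, 49.0-fold, adjusted p = 1.4e-07) with E3. At 24 hr *Pgf* read -3.00, -2.68 and -2.50 with E2 and -2.68, -2.84 and -3.65 with E3, and neither difference from saline passed the test (0.47, adjusted p = 0.252, and 0.13, adjusted p = 0.796).

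*Vegfa*, the principal ligand for vessel growth and leakiness, was read by 3 probes on chr17 (mm7, minus strand). A_52_P638895 at 44146842 to 44146901 lies nearest the 3′ end, A_51_P482552 at 44147967 to 44148026 lies 1125 bases upstream of it and is spotted 10 times on each array, and A_52_P249424, in coding sequence, lies further upstream. With E2 at 2 hr A_51_P482552 read 2.53, 2.84 and 2.76, and with E3 2.58, 2.60 and 2.25, against 0.49, 0.31 and 0.39 on the saline arrays. Both estrogens thus stood well clear of saline at 2 hr and overlapped each other. The 3 probes rose by 2.75, 2.32 and 2.70 with E2 (SE 0.17, 0.11 and 0.13), from the 3′ end upstream, which is 6.73-, 4.98- and 6.51-fold. With E3 they rose by 2.66, 2.08 and 3.00 (SE 0.17, 0.11 and 0.13), or 6.32-, 4.23- and 8.02-fold. The adjusted p was at most 2.39e-07 in these 6 tests. Against the saline array on the same slide as the E3 2 hr arrays, E3 gave 2.69, 2.09 and 3.07 for the 3 *Vegfa* probes and 5.81 for *Pgf*, with no test.

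**Figure D1:**
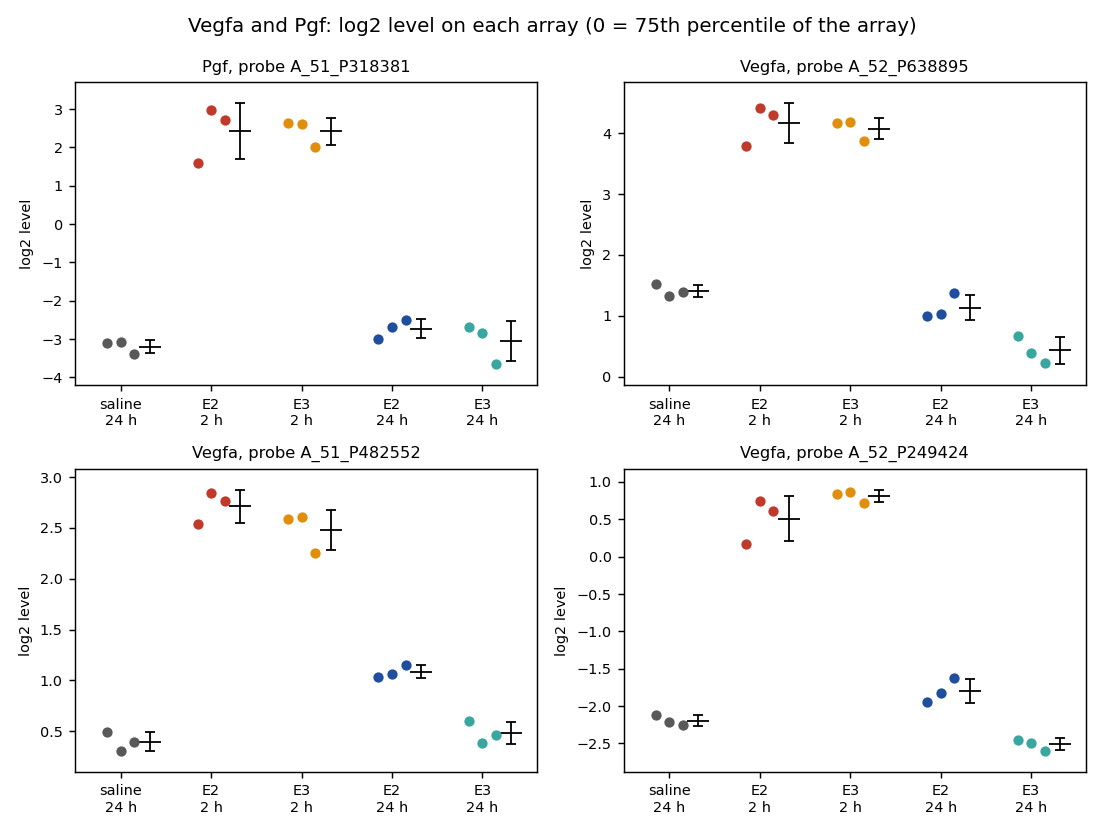
Log2 level of the *Pgf* probe and the 3 *Vegfa* probes (y axis, 0 is the array's 75th percentile) in the 5 groups (x axis); points are arrays, and the black bar is the mean with its SD (n = 3). All 6 arrays at 2 hr lie above all 9 arrays of the other groups for each probe.

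At 24 hr the *Vegfa* probes differed from each other in direction. The 3′ probe read 1.53, 1.33 and 1.39 on the saline arrays, 1.00, 1.03 and 1.37 with E2 and 0.68, 0.39 and 0.24 with E3. A_51_P482552 read 1.03, 1.06 and 1.16 with E2 and 0.60, 0.38 and 0.46 with E3. The coding probe went from -2.11, -2.21 and -2.26 with saline to -1.95, -1.83 and -1.63 with E2 and -2.45, -2.49 and -2.60 with E3. Against saline the differences with E2 were -0.28 (adjusted p = 0.181), 0.69 (2.3e-04) and 0.39 (0.0243), and with E3 they were -0.98 (0.00135), 0.08 (0.606) and -0.32 (0.0871), none of which reached the call. The value of -0.98 lay just short of 2-fold and passed the call under each of 4 other treatments of the signal (normexp background correction, quantile normalization, scaling over well measured probes and no scaling), at -1.05 to -1.01, and also without saline replicate 2 (-1.02) or without E3 24 hr replicate 1 (-1.10).

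The gap between the 3′ probe and A_51_P482552 on the same array shows this without any scaling between arrays. It was 1.02 ± 0.02 with saline (SD, n = 3), 1.45 ± 0.17 at E2 2 hr, 1.60 ± 0.02 at E3 2 hr, 0.05 ± 0.14 at E2 24 hr and -0.05 ± 0.16 at E3 24 hr. No array of a treated group overlapped the saline arrays, and the 2 hr and 24 hr groups lay on opposite sides of them. The coding probe read 2.59 below A_51_P482552 with saline (gap -2.59), and this distance was smaller at 2 hr, with gaps of -2.20 and -1.67 (E2, E3), and larger at 24 hr, with gaps of -2.89 and -2.99. Each of these comparisons gave p = 0.1 by a two-sided exact permutation test, the smallest that 3 arrays against 3 can give. The gaps show only that the probes changed unequally, and the comparison was added after the values were seen. In all 20 such comparisons were computed, over 5 probe pairs of *Vegfa*, *Flt1*, *Angpt1* and *Tek* chosen after the values were seen, with no background over other genes' probe pairs.

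**Figure D2:**
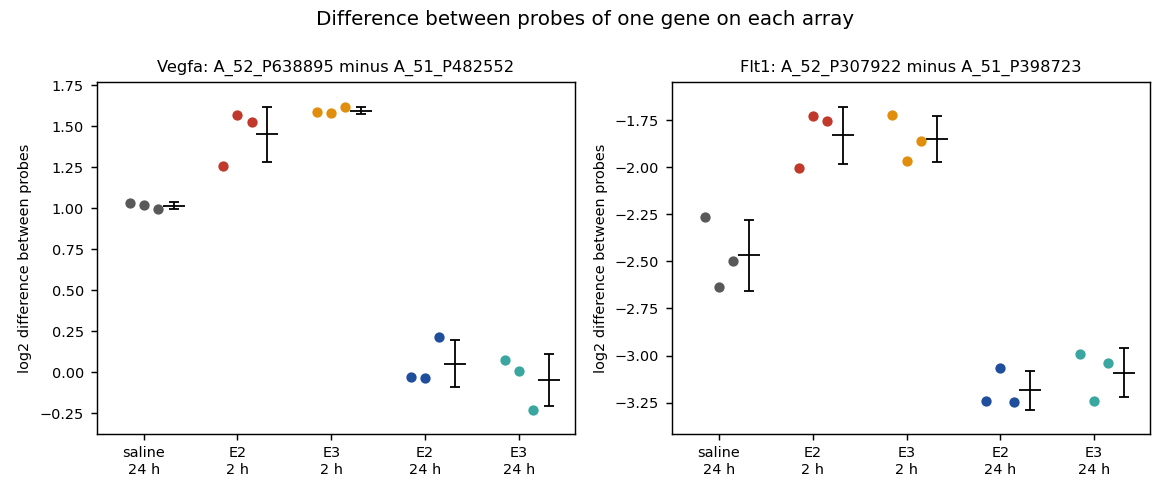
Difference in log2 level between probes of the same gene on each array (y axis) in the 5 groups (x axis), for *Vegfa* (left) and *Flt1* (right); the black bar is the mean with its SD (n = 3). For both genes the 2 hr arrays lie above and the 24 hr arrays below the 3 saline arrays.

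The other ligands read lower than saline at 2 hr. *Vegfc*, the lymphatic growth factor (A_51_P433870, chr8:52955111-52955170, mm7, plus strand), read 1.11, 1.10 and 1.17 with saline, 0.00, -0.45 and -0.43 at E2 2 hr, and 0.38, 0.01 and -0.12 at E3 2 hr. All 6 arrays at 2 hr lay below saline. It fell by 1.41 with E2 (SE 0.14, adjusted p = 4.12e-06) and by 1.04 with E3 (SE 0.14, adjusted p = 8.43e-05). The E3 value rested on single arrays, being -1.00 and -0.93 and no longer 2-fold without E3 replicate 2 or 3, -0.75 (adjusted p = 0.018) without the 4 arrays with pancreas transcripts, and -0.94 (adjusted p = 0.00246) without the 3 with leukocyte transcripts. At 24 hr *Vegfc* read 0.74, 0.54 and 0.51 with E2, below saline, and 1.54, 1.41 and 1.31 with E3, above saline, with differences of -0.53 (adjusted p = 0.00713) and 0.30 (adjusted p = 0.133).

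*Figf*, the gene of VEGF-D (A_51_P117739, chrX:159176825-159176884, mm7, plus strand), read 0.68, 0.62 and 0.83 with saline. It read 0.35, -0.19 and -0.38 at E2 2 hr and 0.15, -0.18 and -0.08 at E3 2 hr, all below saline, but the differences of -0.79 (adjusted p = 8.39e-04) and -0.75 (adjusted p = 0.00167) did not reach 2-fold, though the E2 value did without E2 2 hr replicate 1 (-1.00). At 24 hr all arrays lay above saline, at 1.02, 0.92 and 0.85 with E2 and 1.44, 1.54 and 1.51 with E3 (0.22, adjusted p = 0.25, and 0.79, adjusted p = 0.00273).

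*Vegfb*, a *Flt1* ligand, was read by probes 285 bases apart on chr19 (mm7, minus strand). A_52_P436628 at 6802619 to 6802678 read 1.03, 0.72 and 0.79 with saline and -0.18, -0.09 and -0.21 at E2 2 hr, so it fell by 1.00 (SE 0.13, adjusted p = 3.22e-05), just past 2-fold. This call was lost without saline replicate 1 (-0.91), E2 2 hr replicate 1 (-0.99) or replicate 3 (-0.98), and with normexp (-0.93) or without scaling (-0.91). The same probe differed by -0.42 with E3 (adjusted p = 0.0181). The neighbouring A_51_P458168 at 6802334 to 6802393 differed by -0.48 with E2 and -0.53 with E3 (adjusted p = 0.023 and 0.0189), and at 24 hr both probes lay within 0.12 of saline.

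**Figure D3:**
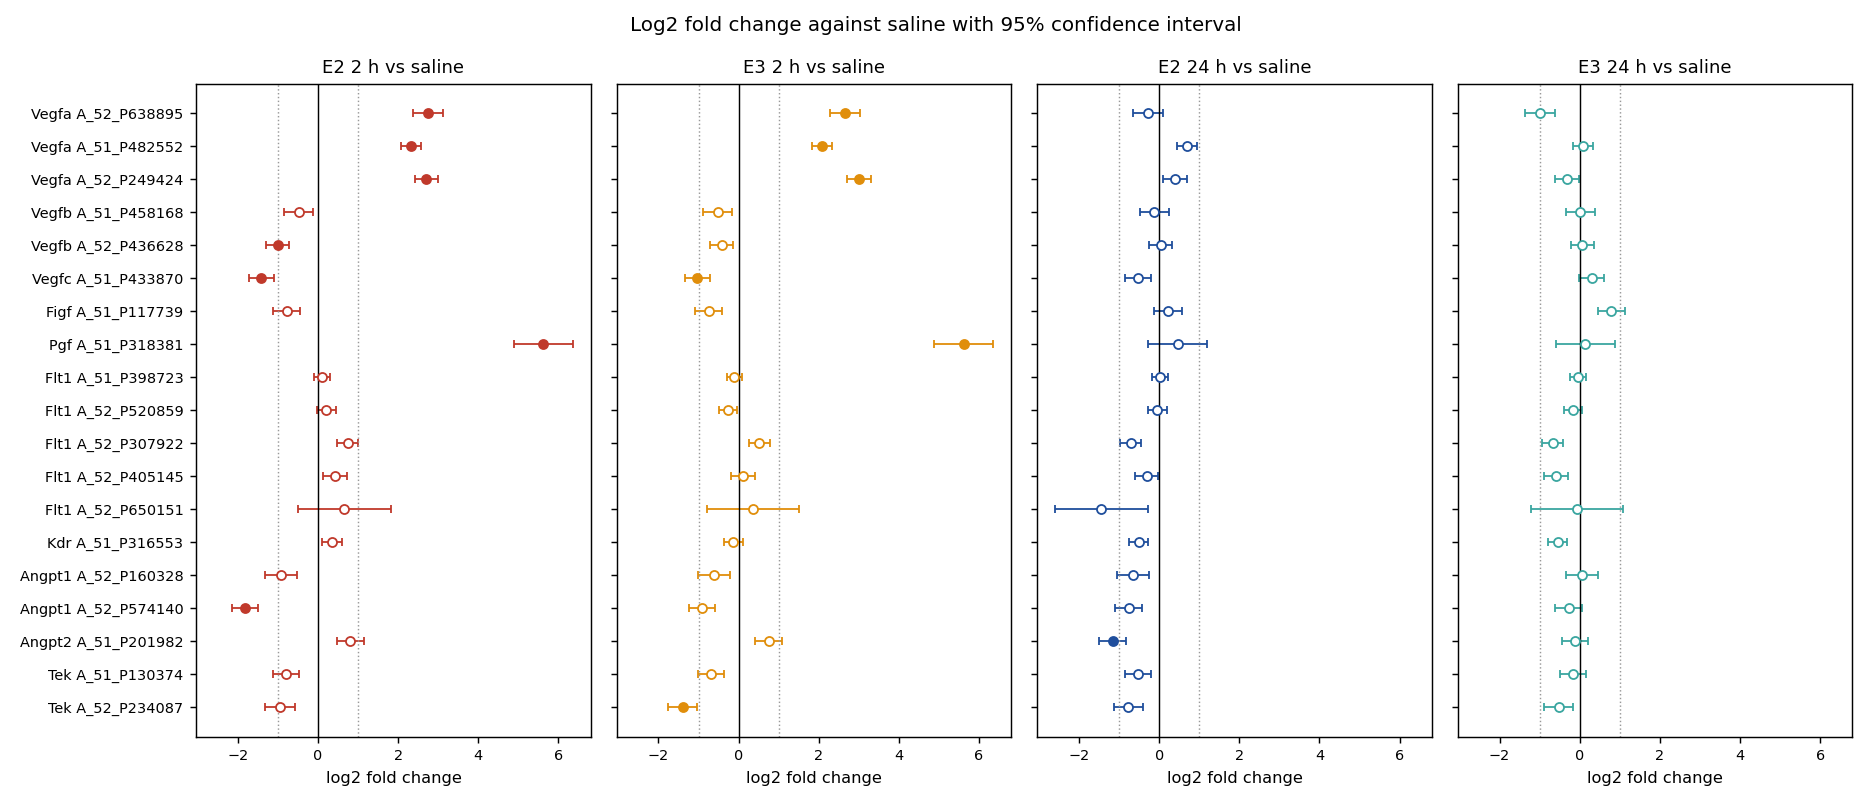
Log2 fold change against saline (x axis) of the 19 tested probes (y axis) in the 4 treated groups; bars are 95% confidence intervals, filled points passed the call and dotted lines mark 2-fold. *Pgf* and the 3 *Vegfa* probes stand far to the right at 2 hr, and at 24 hr 1 point, *Angpt2* with E2, is filled. *Flt1* A_52_P650151 is drawn but lies near background, and no change is read from it.

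No probe of the VEGF receptors passed the call against saline. *Flt1* was read by 5 probes on chr5 (mm7, minus strand), of which the neighbouring A_51_P398723 (146456619 to 146456678) and A_52_P520859 (146456692 to 146456751) lie at the end furthest downstream. Their differences from saline ran from -0.11 to 0.10 and from -0.26 to 0.21 over the 4 treated groups, and none passed an adjusted p of 0.05. A_52_P307922 (146532609 to 146532668), 75990 bases upstream in the genome, behaved otherwise. It read -0.22, -0.61 and -0.41 with saline, 0.26, 0.41 and 0.31 at E2 2 hr, 0.28, 0.03 and -0.00 at E3 2 hr, -1.31, -0.94 and -1.10 at E2 24 hr, and -1.06, -1.10 and -1.09 at E3 24 hr.

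All treated arrays of A_52_P307922 thus lay above saline at 2 hr and below it at 24 hr, by 0.74 and 0.51 at 2 hr (E2, E3) and by -0.71 and -0.67 at 24 hr. The adjusted p ran from 1.69e-04 to 0.0034 and none of the 4 reached 2-fold. From 2 hr to 24 hr this probe fell by 1.45 with E2 (SE 0.12, adjusted p = 3.8e-07) and by 1.18 with E3 (SE 0.12, adjusted p = 5.19e-06). Its gap to A_51_P398723 was -2.47 ± 0.19 with saline, -1.83 ± 0.15 and -1.85 ± 0.12 at 2 hr (E2, E3) and -3.19 ± 0.10 and -3.09 ± 0.13 at 24 hr (SD, n = 3), with no overlap between saline and any treated group. The dimmer A_52_P405145 (146548804 to 146548863) differed by 0.43, 0.11, -0.32 and -0.60 (E2 and E3 at 2 hr, then at 24 hr), and A_52_P650151 (146539960 to 146540019) was well above background on only 5 of 15 arrays. A_52_P650151 passed the filter only through E2 2 hr, where 2 arrays read it well above background, against 1 with saline and 0 at E2 24 hr. No change is given for it in the text. Which *Flt1* transcripts, membrane-bound or soluble, each of these probes reads was not determined.

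*Kdr*, the main signalling receptor, was read by A_51_P316553 (chr5:75351537-75351596, mm7, minus strand). It read 1.17, 1.28 and 1.26 with saline, 1.74, 1.47 and 1.55 at E2 2 hr, 1.11, 1.01 and 1.19 at E3 2 hr, 0.57, 0.69 and 0.95 at E2 24 hr, and 0.78, 0.73 and 0.56 at E3 24 hr. Both groups at 24 hr lay below all saline arrays and overlapped each other, at -0.50 (adjusted p = 0.00162) and -0.55 (adjusted p = 0.00275). E2 at 2 hr lay above saline (0.35, adjusted p = 0.0148), and E3 at 2 hr overlapped it (-0.13, adjusted p = 0.335). The other *Kdr* probe, A_52_P478193 (75382167 to 75382226), was not well above background on any of the 15 arrays and was not tested.

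The summed level of the 16 endothelial markers was 6.67 to 6.85 with saline, 6.48 to 6.85 at E2 2 hr, 6.36 to 6.52 at E3 2 hr, 6.52 to 6.59 at E2 24 hr and 6.74 to 6.83 at E3 24 hr. Of these markers 1 rose and 1 fell at E2 2 hr, 1 rose and 2 fell at E3 2 hr, 1 rose and 2 fell at E2 24 hr, and 1 rose at E3 24 hr. Shares of all probes called are 10.6% higher and 10.7% lower at E2 2 hr, 4.68% and 9.11% at E3 2 hr, 6.93% and 11.1% at E2 24 hr, and 1.85% and 1.96% at E3 24 hr. At an adjusted p under 0.05 with no minimum change, 2 were higher and 7 lower at E2 2 hr, and 2 and 4 at E3 2 hr. At 24 hr 3 were higher and 9 lower with E2 (median -0.31), and 1 and 2 with E3 (median -0.01). Of all probes, 61.9% and 49.6% passed that cutoff in either direction at 2 hr (E2, E3), and 61.4% and 34.1% at 24 hr. Markers of other cell types shifted as well. The summed level of 7 epithelial markers was 6.09 to 6.54 with saline, 5.56 to 6.07 at 2 hr over both estrogens, 7.20 to 7.30 at E2 24 hr and 6.84 to 6.95 at E3 24 hr. That of 6 smooth muscle markers was 7.53 to 7.66 with saline, 7.57 to 7.74 at 2 hr, 8.01 to 8.11 at E2 24 hr and 8.02 to 8.36 at E3 24 hr. The 6 uterine markers summed to a median of 5.47 with saline, 4.94 at E2 2 hr, 4.43 at E3 2 hr, 5.07 at E2 24 hr and 5.27 at E3 24 hr, and all treated arrays lay below the lowest saline array (5.34). The part of these shifts in the values of the receptors and the other members was not tested.

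Of the angiopoietins, *Angpt2* was called against saline with E2 at 24 hr and in no other treated group. Its probe A_51_P201982 (chr8:18668127-18668186, mm7, minus strand) read 0.38, 0.70 and 0.61 with saline, 1.33, 1.23 and 1.54 at E2 2 hr, and 1.38, 1.52 and 1.04 at E3 2 hr. The 2 hr arrays lay above saline with both estrogens, but the differences of 0.80 (adjusted p = 5.81e-04) and 0.75 (adjusted p = 0.00136) did not reach 2-fold. At 24 hr it read -0.38, -0.66 and -0.76 with E2, below every other array, and 0.64, 0.29 and 0.40 with E3, within the saline range or just below it. It fell by 1.16 with E2 (SE 0.15, 2.24-fold, adjusted p = 3.9e-05) and differed by -0.12 with E3 (adjusted p = 0.588). Without the 4 arrays with pancreas transcripts, which left 1 array in the E2 24 hr group, the E2 value was -0.94 (adjusted p = 0.00517) and no longer 2-fold.

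*Angpt1* was read by the probes shown above, which lie 69327 bases apart on the gene. The coiled-coil probe A_52_P574140 read -3.97, -4.03 and -4.23 with saline, -5.88, -5.82 and -6.01 at E2 2 hr, and -4.92, -4.87 and -5.20 at E3 2 hr. The 3 groups did not overlap, with E2 lowest. It fell by 1.83 with E2 (SE 0.15, 3.55-fold, adjusted p = 7.14e-07) and differed by -0.92 with E3 (SE 0.15, adjusted p = 2.88e-04), short of 2-fold. With normexp background correction the E2 value was -1.18 and not called (adjusted p = 0.0544).

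The fibrinogen-like probe A_52_P160328 differed by -0.94 with E2 (adjusted p = 7.3e-04) and -0.62 with E3 (adjusted p = 0.0131) at 2 hr. The E2 value was called without E2 2 hr replicate 1 (-1.10, adjusted p = 3.3e-04) and with scaling over well measured probes (-1.00). At 24 hr the *Angpt1* probes lay below saline on every E2 array, by -0.66 (adjusted p = 0.00789) for A_52_P160328 and -0.76 (adjusted p = 8.48e-04) for A_52_P574140, and overlapped saline with E3, at 0.05 (adjusted p = 0.852) and -0.28 (adjusted p = 0.177).

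*Tek*, the receptor of both angiopoietins, was read by 2 probes on chr4 (mm7, plus strand). A_52_P234087 (94134402 to 94134461) read -2.93, -2.81 and -2.90 with saline, -4.04, -3.52 and -3.93 at E2 2 hr, and -4.40, -4.20 and -4.23 at E3 2 hr. All 2 hr arrays lay below saline, E3 lowest. It fell by 1.40 with E3 (SE 0.17, 2.64-fold, adjusted p = 2.38e-05) and differed by -0.95 with E2 (adjusted p = 3.23e-04), which was called without E2 2 hr replicate 2 (-1.11). With normexp the E3 value was -1.11 (adjusted p = 0.0289) and not called. A_51_P130374 (94266776 to 94266835), 132374 bases downstream, differed by -0.81 and -0.68 (E2, E3, adjusted p = 4.74e-04 and 0.00221). At 24 hr the probes differed by -0.77 and -0.52 with E2 (adjusted p = 0.00164 and 0.00915) and by -0.52 and -0.17 with E3 (adjusted p = 0.0299 and 0.403). Without the 4 arrays with pancreas transcripts A_52_P234087 was called at E2 24 hr (-1.11, adjusted p = 0.00453).

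**Figure D4:**
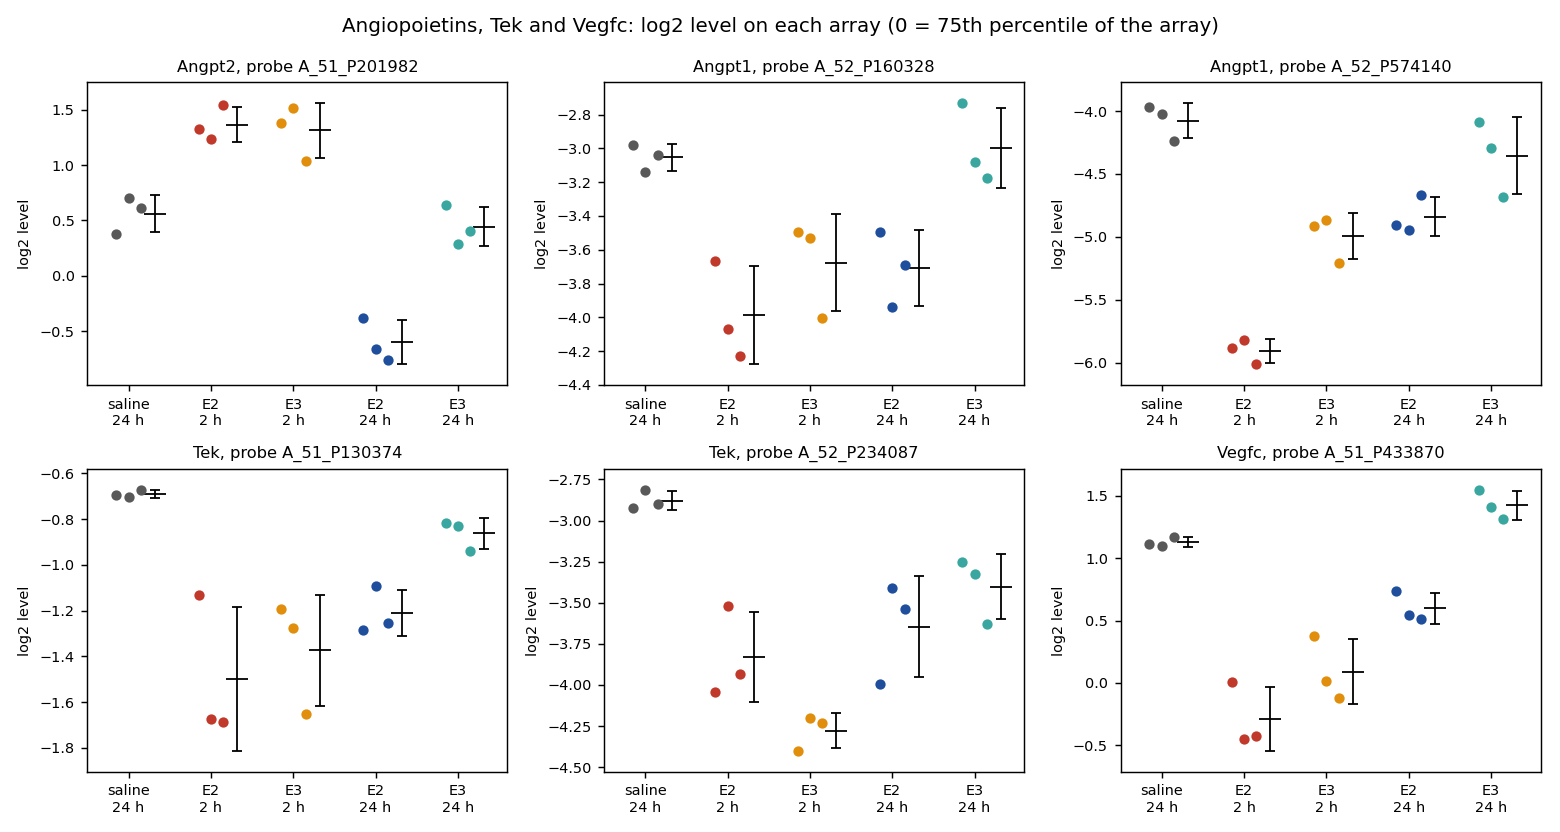
Log2 level of *Angpt2*, *Angpt1* (2 probes), *Tek* (2 probes) and *Vegfc* (y axis, 0 is the array's 75th percentile) in the 5 groups (x axis); points are arrays, and the black bar is the mean with its SD (n = 3). *Angpt2* is lowest at E2 24 hr, whereas the other 5 panels are lowest at 2 hr.

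Counted over the 19 tested probes, E2 at 2 hr called 7 (4 higher in 2 genes, 3 lower in 3 genes), against 21.2% of all probes tested, of which 10.6% higher and 10.7% lower. E3 at 2 hr called 6 (4 higher, 2 lower), against 13.8% of all probes (4.68% higher, 9.11% lower). The probes higher at 2 hr were the 3 *Vegfa* probes and *Pgf* with both estrogens. At 24 hr E2 called 1, lower, against 18.1% of all probes (6.93% higher, 11.1% lower), and E3 called 0, against 3.81% (1.85% higher, 1.96% lower). With E3 at 24 hr 7 of the 19 had an unadjusted p under 0.05 by limma, a cutoff at which the share of all probes was not computed. At an adjusted p under 0.05 with no minimum change, 16 and 14 of the 19 differed from saline at 2 hr (E2, E3; 61.9% and 49.6% of all probes) and 11 and 6 at 24 hr (61.4% and 34.1%). The 11 include *Flt1* A_52_P650151, which was not well above background on any E2 24 hr array. The treated arrays did not overlap saline for 18 and 16 of the 19 at 2 hr (67.2% and 58.1% of all probes) and for 14 and 9 at 24 hr (68.9% and 51.5%). The 18 and the 14, both with E2, also count *Flt1* A_52_P650151, which passed the filter only through E2 2 hr. The medians over the 19 probes take it in as well. The median log2 fold change of the 19 probes was 0.21 and -0.13 at 2 hr (E2, E3) and -0.32 and -0.12 at 24 hr. The median of all probes tested was -0.08, -0.11, -0.06 and -0.01 in the same order. With normexp the split at 2 hr was 4 higher and 1 lower with either estrogen, and scaling over well measured probes gave 4 higher and 5 lower for E2.

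E3 carries an additional hydroxyl group on the D ring of the steroid that E2 lacks, and both were given at 250 ng. The estrogens were compared at each time over the 19 probes, 38 comparisons in all, with p adjusted over all probes tested at that time. At 2 hr 0 of 19 probes were called, against 7.37% of all probes. An unadjusted p under 0.05 by limma was reached by 9 of 19, a cutoff at which the share of all probes was not computed. An adjusted p under 0.05 was reached by 5 of 19, against 43.3% of all probes, and the arrays did not overlap for 7, against 50.8%. For the probes that rose most the difference, E3 minus E2, was -0.01 for *Pgf* (95% interval -0.74 to 0.73) and -0.09 (-0.46 to 0.29), -0.23 (-0.48 to 0.01) and 0.30 (0.01 to 0.59) for the *Vegfa* probes. A larger difference at 2 hr was that of the coiled-coil *Angpt1* probe, which was 0.91 higher with E3 (0.58 to 1.24, adjusted p = 5.08e-04) and passed 2-fold without E3 2 hr replicate 3 (1.02), without the 3 arrays with leukocyte transcripts (1.02) and with quantile normalization (1.00). *Kdr* was 0.48 lower on E3 arrays (interval -0.72 to -0.24, difference -0.48, adjusted p = 0.00383), with no overlap. The other probes under an adjusted p of 0.05 were *Vegfb* A_52_P436628, 0.58 higher with E3 (adjusted p = 0.00388), *Flt1* A_52_P520859 at -0.47 (adjusted p = 0.004) and *Tek* A_52_P234087 at -0.45 (adjusted p = 0.0464), none with overlapping arrays. Strain, slide, scanner and day differed between these groups as well and cannot be told apart from the compound.

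At 24 hr, where both groups were C57bl6/J and scanned alike but lay on different slides, 1 of 19 probes was called, higher with E3, against 4.85% of all probes (2.77% higher). An adjusted p under 0.05 was reached by 8 of 19, against 36.5% of all probes, and the arrays did not overlap for 8, against 51.3%. The called probe was *Angpt2*, 1.04 higher with E3 than with E2 (95% interval 0.71 to 1.37, adjusted p = 3.04e-04), with no overlap between the arrays. It fell short of 2-fold without E2 replicate 3 (0.96), without E3 replicate 1 (0.95), without scaling (0.99) and without the 4 arrays with pancreas transcripts (0.82, adjusted p = 0.0261). *Vegfc* was 0.83 higher with E3 (0.51 to 1.14, adjusted p = 9.95e-04), *Figf* 0.57 (0.23 to 0.91, adjusted p = 0.0138), and the *Angpt1* probes 0.71 (0.31 to 1.11) and 0.49 (0.16 to 0.81).

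The 3 *Vegfa* probes differed the other way at 24 hr, by -0.70 (-1.08 to -0.33), -0.60 (-0.85 to -0.35) and -0.71 (-1.00 to -0.42), with adjusted p of 0.00733, 0.00156 and 0.00164 and no overlap between E2 and E3 arrays on any of them. *Kdr* (-0.04, -0.28 to 0.20), *Flt1* A_51_P398723 (-0.06, -0.26 to 0.13) and *Flt1* A_52_P307922 (0.03, -0.23 to 0.29) had intervals that lay within 0.3 of 0. For *Pgf* the interval was wider, -1.07 to 0.41 around -0.33.

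Whether the E3 minus E2 difference itself changed from 2 hr to 24 hr was tested in the same fit. The call was passed by 2 of 19 probes, 1 in each direction, against 15.5% of all probes (11.1% higher, 4.39% lower). They were *Angpt2*, where the difference went from -0.05 at 2 hr to 1.04 at 24 hr, and the coding *Vegfa* probe A_52_P249424, where it went from 0.30 to -0.71. The other *Vegfa* probes moved the same way by less, -0.61 (adjusted p = 0.0567) and -0.37 (adjusted p = 0.0794).

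**Figure D5:**
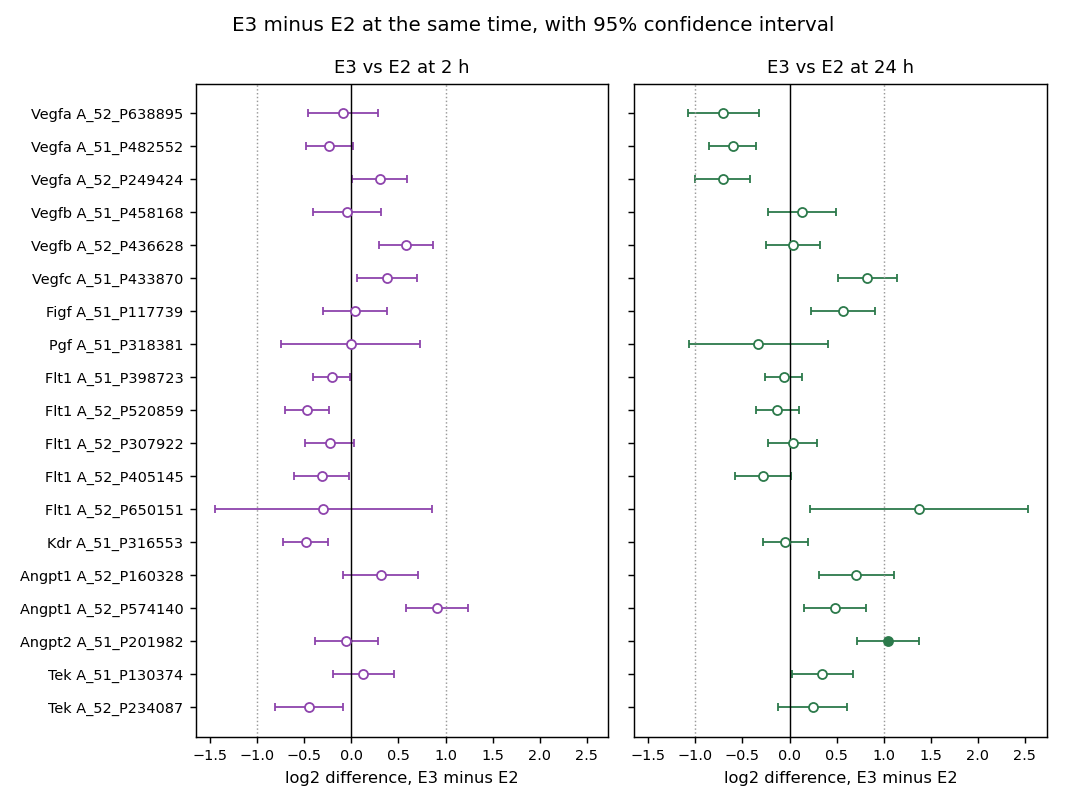
Difference in log2 level, E3 minus E2, at 2 hr and 24 hr (x axis) for the 19 tested probes (y axis); bars are 95% confidence intervals, the filled point passed the call and dotted lines mark 2-fold. At 24 hr the 3 *Vegfa* probes lie to the left of 0, and *Vegfc*, *Figf*, *Angpt1* and *Angpt2* lie to the right. *Flt1* A_52_P650151 is drawn but lies near background, and no difference is read from it.

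Between 2 hr and 24 hr, E2 called 9 of 19 probes (3 higher, 6 lower), against 31.1% of all probes (13.9% higher, 17.2% lower), and E3 called 7 (2 higher, 5 lower), against 16.1% (9.65% higher, 6.46% lower). *Pgf* fell by 5.16 with E2 and by 5.48 with E3, and the *Vegfa* probes fell by 3.03, 1.63 and 2.31 with E2 and by 3.64, 2.00 and 3.32 with E3. *Figf* rose with both, by 1.00 (adjusted p = 9.27e-05) and 1.54 (adjusted p = 5.71e-06), and *Vegfc* rose by 1.33 with E3 (adjusted p = 9.34e-06) and was 0.89 higher with E2. *Angpt2* fell by 1.97 with E2 (adjusted p = 2.24e-07) and was lower by a smaller amount with E3 (-0.87, adjusted p = 3.93e-04). With E2, A_52_P574140 of *Angpt1* rose by 1.07 and A_52_P436628 of *Vegfb* by 1.04, both back towards saline. The 3 probes higher with E2, *Figf*, *Angpt1* A_52_P574140 and *Vegfb* A_52_P436628, were each short of 2-fold with normexp or without scaling, so that the split was then 0 higher and 6 lower or 0 higher and 7 lower. Leaving out 1 array also took *Figf* below 2-fold (without E2 2 hr replicate 2 or 3 or E2 24 hr replicate 1, 0.85 to 0.96), *Vegfb* A_52_P436628 (without E2 24 hr replicate 2, 0.94) and *Angpt1* A_52_P574140 (without E2 24 hr replicate 3, 0.98).

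Other genes of the pathway came from lists of co-receptors, further vessel growth signals, inhibitors, VEGF-induced transcripts and permeability genes, each read by its brightest probe. Their counts of calls stand beside shares of all probes of 10.6% higher and 10.7% lower at E2 2 hr, 4.68% and 9.11% at E3 2 hr, 6.93% and 11.1% at E2 24 hr, and 1.85% and 1.96% at E3 24 hr, and the lists were not tested as such. Of 8 measured co-receptors and other receptor system genes, 3 rose and 0 fell at E2 2 hr, 2 rose at E3 2 hr and 1 rose at E2 24 hr. In that last group 2 were higher and 4 lower at an adjusted p under 0.05, against 61.4% of all probes in either direction. *Angpt4*, a further *Tek* ligand, rose by 1.61 with E2 and 2.46 with E3 at 2 hr, and at 24 hr by 1.58 with E2 but not with E3 (-0.03, adjusted p = 0.899). The E3 value at 24 hr was 1.61 below that with E2 (difference -1.61, SE 0.17, adjusted p = 3.57e-05). *Itgb3*, an integrin chain that pairs with the alpha V chain, rose by 2.02 and 2.04 at 2 hr, and *Nrp2*, a co-receptor of VEGF-C, rose by 1.09 with E2 and differed by 0.83 with E3.

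Of 23 further vessel growth signals, 7 rose and 2 fell at E2 2 hr, against 10.6% and 10.7% of all probes (median -0.12). At E3 2 hr 5 rose and 3 fell, against 4.68% and 9.11% (median -0.01). *Ramp3*, a partner chain of the adrenomedullin receptor, rose by 4.35 with E2 and 4.11 with E3 at 2 hr, and at 24 hr by 2.48 with E2 (adjusted p = 1.88e-06), against 0.11 with E3 (adjusted p = 0.721). The E3 minus E2 difference in *Ramp3* at 24 hr was -2.37 (SE 0.21, adjusted p = 1.71e-05). *Hgf*, a growth factor made by stroma, fell by 4.13 and 3.48 at 2 hr, and *Adm* (adrenomedullin), a dilator peptide, rose by 2.73 and 1.93. At 24 hr 1 rose and 2 fell with E2, against 6.93% and 11.1% of all probes, and none was called with E3, against 3.81%. At an adjusted p under 0.05, 3 were higher and 11 lower with E2 at 24 hr (median -0.44), and 1 higher and 7 lower with E3 (median -0.24). Of all probes, 61.4% (E2) and 34.1% (E3) passed that cutoff in either direction.

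Of 11 inhibitors of vessel growth, 1 rose at E2 2 hr, against 10.6% of all probes, and 2 rose and 1 fell at E3 2 hr, against 4.68% and 9.11%. *Adamts1*, a protease that binds VEGF-A, rose by 3.05 and 2.58. At E2 24 hr 3 fell, against 11.1% of all probes, *Thbs1* by 1.48, *Thbs2* by 1.41 and *Timp3* by 1.30, the first 2 being thrombospondins and the last a blocker of *Kdr*. With E3 at 24 hr none of the 11 was called, and these 3 read -0.89, -0.54 and -0.63 against saline (adjusted p = 0.0371, 0.136 and 0.00288). Of 6 measured transcripts that VEGF is known to induce in endothelium, 4 rose with either estrogen at 2 hr, against 10.6% (E2) and 4.68% (E3) of all probes, and 1 fell with E2, against 10.7%. *Egr3*, a transcription factor, rose by 4.66 and 4.09, *Nr4a1* by 3.92 and 3.57, and *Apln* (apelin) by 2.15 and 1.90. The median of the 6 was 1.70 and 1.58 at 2 hr and -0.05 and -0.00 at 24 hr. *Egr3*, *Nr4a1* and *Apln* are made by cells other than endothelium as well. *Esm1*, a proteoglycan core protein made mostly by endothelium, was the member that fell, by 1.61 with E2 (adjusted p = 9.63e-05), and differed by -0.80 with E3 (adjusted p = 0.0155). *Dll4*, a Notch ligand of arterial endothelium, was not called at 2 hr, at 0.48 and 0.30 (adjusted p = 0.0132 and 0.108).

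Of 9 adhesion and permeability genes, 2 rose and 1 fell at 2 hr with either estrogen, against 10.6% and 10.7% of all probes with E2 and 4.68% and 9.11% with E3. *Nos3*, the endothelial nitric oxide synthase, rose by 1.07 and 1.16, and *Bdkrb2*, a bradykinin receptor, rose by 1.08 with E2 and differed by 0.95 with E3. *Sele* (E-selectin) was well above background on 9 of 15 arrays. It read -10.07 to -6.60 with saline, -5.58 to -3.38 at E2 2 hr and -4.27 to -4.11 at E3 2 hr. E3 2 hr was called (adjusted p = 0.00196), which makes *Sele* 1 of the 2 counted there, and E2 2 hr was not (adjusted p = 0.00356). Its lowest saline value lay under -8.29, the lowest level well above background on any saline array, so no size of change is given. *Cldn5*, the main tight junction protein of endothelium, fell by 2.20 with E2 and 1.25 with E3 at 2 hr, and at 24 hr fell by 1.56 with E2 and differed by -0.55 with E3. The E3 level of *Cldn5* at 24 hr was 1.02 above that with E2 (SE 0.14, adjusted p = 2.52e-04). *Plvap*, which forms the diaphragms of fenestrated vessels, rose by 1.71 and 1.25 at 24 hr.

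The members' patterns over the 15 arrays were set beside those of all other probes by Pearson's r of log2 levels, as a description, since the arrays share 5 groups. For *Vegfa* (A_52_P638895) the most alike were *Hrh1*, a histamine receptor gene, at r = 0.996, and *Cdc42ep1*, TC1499760, *Taf5l* and *Crispld2*, at 0.992 to 0.993. For *Angpt2* they were *Spag9*, *Cck*, *Jun*, *Ldb1* and *Arid5a*, at 0.968 to 0.970, and for *Kdr* *Zfp146*, TC1501770, 9630020I17Rik, *Ube3a* and *Sp1*, at 0.959 to 0.971. Among the members themselves, *Vegfa* and *Pgf* were related at r = 0.975, and *Vegfa* and *Figf* at r = -0.95.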

How the data were processed

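Uterine RNA of 15 samples, 3 in each of 5 groups, was hybridised in a single color to 60-mer Agilent whole mouse genome arrays. The authors extracted the deposited intensity values with Agilent Feature Extraction (version 9.5.3.1 per the file headers, 9.5 in the submitters' processing notes), which subtracted background and marked outlier spots. The headers place probes on mm7 (NCBI build 35).

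From these intensities, control and outlier spots were left out, the log2 was taken, the 75th percentile of each array was subtracted and spots of a probe were averaged. A probe was tested if at least 2 arrays of some group flagged it as well above background, which kept 34776 probes (34766 where the E2 2 hr arrays entered, since outlier spots left no value there). limma 3.58.1 in R 4.3.3 (lmFit, eBayes) fitted 5 group means to all 15 arrays, and 9 comparisons were drawn from this fit. Their number, 3 a group, limits the precision.

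The members, gene lists and tests were chosen with earlier results of these data known. All member probes are named, and from each list at most the 3 called genes with the largest change in a comparison; *Dll4* was named after its values were seen. The steps were tested on simulated data of 34296 probes with 200 changed by 3- to 8-fold. Of these, 94.5% were recovered for E2 2 hr, 91.5% for E3 2 hr, 94.5% for E2 24 hr and 95% for E3 24 hr. False calls numbered 5, 11, 12 and 5 in the same order. Changes below 3-fold were not simulated, so this gives no recovery for probes near the 2-fold cutoff. Promoter windows came from RefSeq (GRCm38.p6). Alternatives covered background correction, scaling, filter, outlier spots, call rule, arrays used, slide and the replicate block.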

Additional observations from a re-analysis of the deposited data

Results flagged for a closer look

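For 2 of the 19 probes the difference between the estrogens was not the same at both times, by limma's test of that change, against 15.5% of all probes tested, so that the members' share was not above the general rate. An adjusted p under 0.05 was reached by 5 of the 19, against 46% of all probes, the others being *Vegfb* A_52_P436628 (-0.55), *Kdr* A_51_P316553 (0.44) and *Tek* A_52_P234087 (0.69). *Angpt2* (A_51_P201982) gave 1.10 (adjusted p = 0.00142), the E3 minus E2 difference being larger at 24 hr than at 2 hr. It was short of 2-fold without E3 2 hr replicate 3 (0.96) or E3 24 hr replicate 1 (1.00), and was 0.80 (adjusted p = 0.0655) without the 4 arrays with pancreas transcripts. The coding *Vegfa* probe A_52_P249424 gave -1.01 (adjusted p = 0.0011), E3 going from above E2 at 2 hr to below it at 24 hr. It was short of 2-fold in 5 of the 12 fits that left out 1 array, namely without E2 2 hr replicate 1 (-0.84), E3 2 hr replicate 1 (-0.99) or 2 (-0.98), E2 24 hr replicate 3 (-0.92) or E3 24 hr replicate 3 (-0.97), and was -0.90 (adjusted p = 0.0614) without the 4 arrays with pancreas transcripts. Without the 3 arrays with leukocyte transcripts neither was called, at 0.98 (adjusted p = 0.00737) for *Angpt2* and -1.01 (adjusted p = 0.00792) for the *Vegfa* probe. Both values take in the E2 2 hr arrays, whose strain, slide, scanner and day cannot be told apart from the treatment.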

How the results depend on the processing

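No called probe changed sign under any alternative. The number of member probes called stayed within 1.5 times the main number except as follows. For E3 24 hr against saline it was 1 rather than 0 with normexp, quantile normalization, scaling over well measured probes and no scaling. For E3 against E2 it was 1 at 2 hr with quantile normalization, and at 24 hr 0 without scaling and 0 without the 4 arrays with pancreas transcripts, an alternative added after seeing the data, which leaves 1 array in 2 groups, assumed to vary like the rest. For the change of the E3 minus E2 difference it was 1 with normexp, 0 without scaling and 0 without those 4 arrays. Without the 3 arrays with leukocyte transcripts, also added after seeing the data, it was 1 for E3 against E2 at 2 hr and 0 for the change of the difference. For E2 24 hr the number stayed at 1 without the 4 arrays, but the probe called was *Tek* A_52_P234087 and not *Angpt2*. An adjusted p under 0.05 with 2-fold gave 2 for E2 24 hr by count, but the added one is the *Flt1* probe A_52_P650151, not well above background on any array there, and is no call of a change. Without the 2-fold minimum, p under 0.001 gave 13 and 10 at 2 hr (E2, E3), 6 and 5 at 24 hr, and 4 and 4 for E3 against E2 at 2 hr and 24 hr, beside 41.2% and 30.2%, 39.3% and 16%, and 22.7% and 18.7% of all probes. An adjusted p under 0.05 alone gave 16 and 14, 11 and 6, and 5 and 8 in the same order, 16 for E3 24 hr against 2 hr and 5 for the change of the difference, beside 61.9% and 49.6%, 61.4% and 34.1%, 43.3% and 36.5%, 55.3% and 46% of all probes. Normexp moved the median of all probes by 0.32 for E3 24 hr against saline and by 0.37 for E3 against E2 at 24 hr, and no scaling moved it by -0.11 for E2 24 hr against 2 hr.

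Leaving out 1 array at a time gave 6 to 8 called probes for E2 2 hr, 5 to 6 for E3 2 hr, 1 to 1 for E2 24 hr, 0 to 1 for E3 24 hr, 0 to 1 for E3 against E2 at 2 hr, 0 to 1 at 24 hr, 8 to 10 and 7 to 8 for 24 hr against 2 hr (E2, E3), and 1 to 2 for the change of the difference. Slide as a random block changed no call, at a fitted correlation of -0.0125. Apart from the slide shared by E3 2 hr and a saline array, each slide held a single group. The block therefore cannot tell slide from treatment. The replicate numbers did not pair samples: deviations of same-numbered samples correlated at -0.467 to 0.551 (median 0.0348, 30 pairs) and those of other samples at -0.512 to 0.629 (median 0.0172, 60 pairs). With the replicate block the number called was 7, 6, 1 and 0 against saline (E2 and E3 at 2 hr, then at 24 hr), 0 and 1 for E3 against E2, 10 and 7 for 24 hr against 2 hr, and 2 for the change of the difference. With 3 arrays a group, probes near 2-fold such as *Vegfb* A_52_P436628 and *Figf* went either side of the call, and dim probes such as *Flt1* A_52_P650151 carry little information.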

Other observations

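Genes of oxygen sensing, which govern *Vegfa* in hypoxia, were counted as a list with no test of the list. Of 7 measured regulators 2 rose at E2 2 hr and 1 at E3 2 hr, where 10.6% and 4.68% of all probes were called higher. At an adjusted p under 0.05, 6 were higher and 0 lower at E2 2 hr, and 4 and 0 at E3 2 hr. Of all probes, 61.9% and 49.6% passed that cutoff in either direction. *Epas1*, the gene of HIF-2 alpha, rose by 2.34 with E2 and 1.25 with E3, and its E3 minus E2 difference at 2 hr was -1.09 (limma, adjusted p = 1.86e-04). *Hif1a* rose by 1.02 with E2 and differed by 0.93 with E3 (adjusted p = 1.77e-05). *Egln3*, a prolyl hydroxylase that hypoxia induces, rose by 1.51 at E2 24 hr and differed by 0.54 with E3. Of 12 hypoxia-induced transcripts, 2 rose and 2 fell at E2 2 hr (10.6% and 10.7% of all probes). At E3 2 hr 1 rose and 1 fell (4.68% and 9.11%), and at E2 24 hr 2 rose and 1 fell (6.93% and 11.1%). At E3 24 hr 0 were called (3.81%). There 4 were higher and 1 lower at an adjusted p under 0.05, against 34.1% of all probes in either direction. At 2 hr *Hk2* (hexokinase 2) rose by 1.84 and 1.74, while *Ankrd37* fell by 1.75 and 1.94. At E2 24 hr *Pgk1* and *Ldha*, enzymes of glycolysis, rose by 1.45 and 1.25, and *Ndrg1* fell by 1.51. Calls among the 12 hypoxia-induced transcripts went in both directions at 2 hr with either estrogen and at E2 24 hr.

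Markers of lymphatic endothelium, the cells on which *Vegfc* and *Figf* act, were called lower in part at E2 24 hr. Of 6 markers 0 were called at 2 hr with either estrogen and 3 fell at E2 24 hr, where 11.1% of all probes were called lower. Those that fell were *Prox1*, the factor that sets lymphatic identity, by 1.34, *Reln* by 1.15 and *Mmrn1* by 1.00. With E3 at 24 hr 0 were called, against 3.81% of all probes, and these read -0.57, -0.66 and -0.50 against saline (adjusted p = 0.0197, 0.0135 and 0.0659). The median over the 6 was -0.92 with E2 and -0.53 with E3, beside -0.06 and -0.01 over all probes. Their summed level was 2.75 to 2.84 on the saline arrays, 1.74 to 1.93 at E2 24 hr and 2.02 to 2.44 at E3 24 hr. Of 8 pericyte markers, the cells that make *Angpt1*, 1 fell at 2 hr with either estrogen, against 10.7% (E2) and 9.11% (E3) of all probes, and 1 at E2 24 hr, against 11.1%. At an adjusted p under 0.05, 3 were lower and 1 higher at E2 2 hr (median -0.20) and 4 lower and 0 higher at E3 2 hr (median -0.44). At E2 24 hr 4 were lower and 1 higher (median -0.39). Of all probes, 61.9%, 49.6% and 61.4% passed that cutoff in either direction in the same groups. Their summed level was 6.31 to 6.54 with saline, 5.95 to 6.09 at E2 2 hr, 5.65 to 5.96 at E3 2 hr, 6.23 to 6.32 at E2 24 hr and 6.47 to 6.56 at E3 24 hr. The part of these shifts in the values of *Angpt1* and the lymphatic ligands was not tested.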
